A study of Mus musculus with 12 samples.

Results

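Genes for axon guidance ligands and their receptors were followed in mouse cumulus cells, the somatic cells that surround the oocyte, after culture with FSH and EGF (FSH/EGF), with GDF9 or in control medium. They were all symbols of the array annotation that name a semaphorin of classes 3 to 7, a plexin, a neuropilin, an ephrin, an Eph receptor, a slit, a robo, a numbered netrin or an Unc5 receptor. The rule found 67 of 19938 named genes, 35 for ligands and 32 for receptors, in 9 families. They were measured by 72 probe sets, and for a gene with several, the one brightest on average over the 12 arrays stood for it. Values are log2 expression values, so that a difference of 1 is 2-fold.

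Cumulus-oocyte complexes came from 129SV females of 21 to 26 days, primed for 44 h with 5 IU of equine chorionic gonadotropin, which all groups share. They were cultured for 8 h in 3 groups of 4 arrays each. The FSH/EGF group received 50 mIU/ml of FSH together with 10 ng/ml of EGF in medium holding 0.125% (v/v) of control medium from 293H cells. The GDF9 group had GDF9, an oocyte growth factor of the TGF-beta family, at 20 ng/ml, and its labels do not mention the 293H medium, which may therefore also set it apart. The control group had the 293H medium alone at 0.125%. Complexes were collected with cilostamide, a phosphodiesterase inhibitor, at 1 micromolar, the oocytes were inside the complexes during culture and were stripped off before RNA extraction, and each array held pooled RNA of 2 of 8 biological replicates, so that p-values measure the spread between such pools.

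Axon guidance genes encode secreted and membrane-bound cues and the receptors that read them on a neighbouring cell or a growing process, and they steer adhesion and the actin cytoskeleton in many tissues besides the nervous system. Semaphorins signal through plexins, with neuropilins as binding partners for most secreted semaphorins of class 3. Ephrins bind Eph receptor kinases on touching cells, with signals in both directions, slits bind robos, and netrins bind the DCC family and Unc5 receptors. Neuropilins also bind vascular endothelial growth factor.

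Array medians ran from 5.41 to 5.53, correlations within a group from 0.971 to 0.995, and 0 pairs of arrays were identical. Array weights differed widely, between 0.269 for control array 1 and 2.04 for FSH/EGF array 3, with GDF9 arrays 1 and 2 also low at 0.485 and 0.565. Control array 4 carried more oocyte transcript, with a median of 5.82 over 22 oocyte markers against 4.72 to 5.06 on the other 11 arrays. The 13 measured granulosa and cumulus markers all lay above the dimmest 40% of rows, and their mean was 8.09 to 8.26 on FSH/EGF arrays, 9.26 to 9.42 on GDF9 arrays and 9.20 to 9.28 on control arrays. Of the 67 axon guidance genes, 60 lay above that level (5.07) and 7 below it. In such bulk RNA, fewer cells of a type and less RNA of its marker genes per cell cannot be told apart. What lowered the granulosa and cumulus marker mean with FSH/EGF was not tested.

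With FSH/EGF, 17 of the 67 genes rose and 11 fell against control medium (limma, Benjamini-Hochberg adjusted p below 0.05 over all 35399 rows). These are 25.4% and 16.4% of the axon guidance genes, against a background of 21.9% of all named genes higher and 14.9% lower, so that the counts lay near the background. Among genes above the dimmest 40% of rows, 45% of the axon guidance genes and 48.2% of all named genes passed in either direction. With equal array medians the split was 19 higher and 7 lower, or 28.4% and 10.4%. Under that scaling 24.2% and 9.19% of all named genes passed. After renewed quantile normalization the shares were 26.9% and 20.9%, against 17.4% and 14.5% of all named genes. With the dimmest 40% of rows removed, 16 rose and 12 fell of the 60 left, against 31.6% and 18.3% of the named genes left. The relation to the background thus varied with the processing. Changes of at least 2-fold numbered 4 up and 3 down, 5.97% and 4.48%, against 5.14% and 2.23% of all named genes. The median difference of the 67 genes was -0.11, against -0.07 over all named genes, and the median size was 0.24, against 0.21. The genes with the largest differences were the receptor genes Nrp1, up by 2.75, and Plxnc1, down by 2.32.

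**Figure D1:**
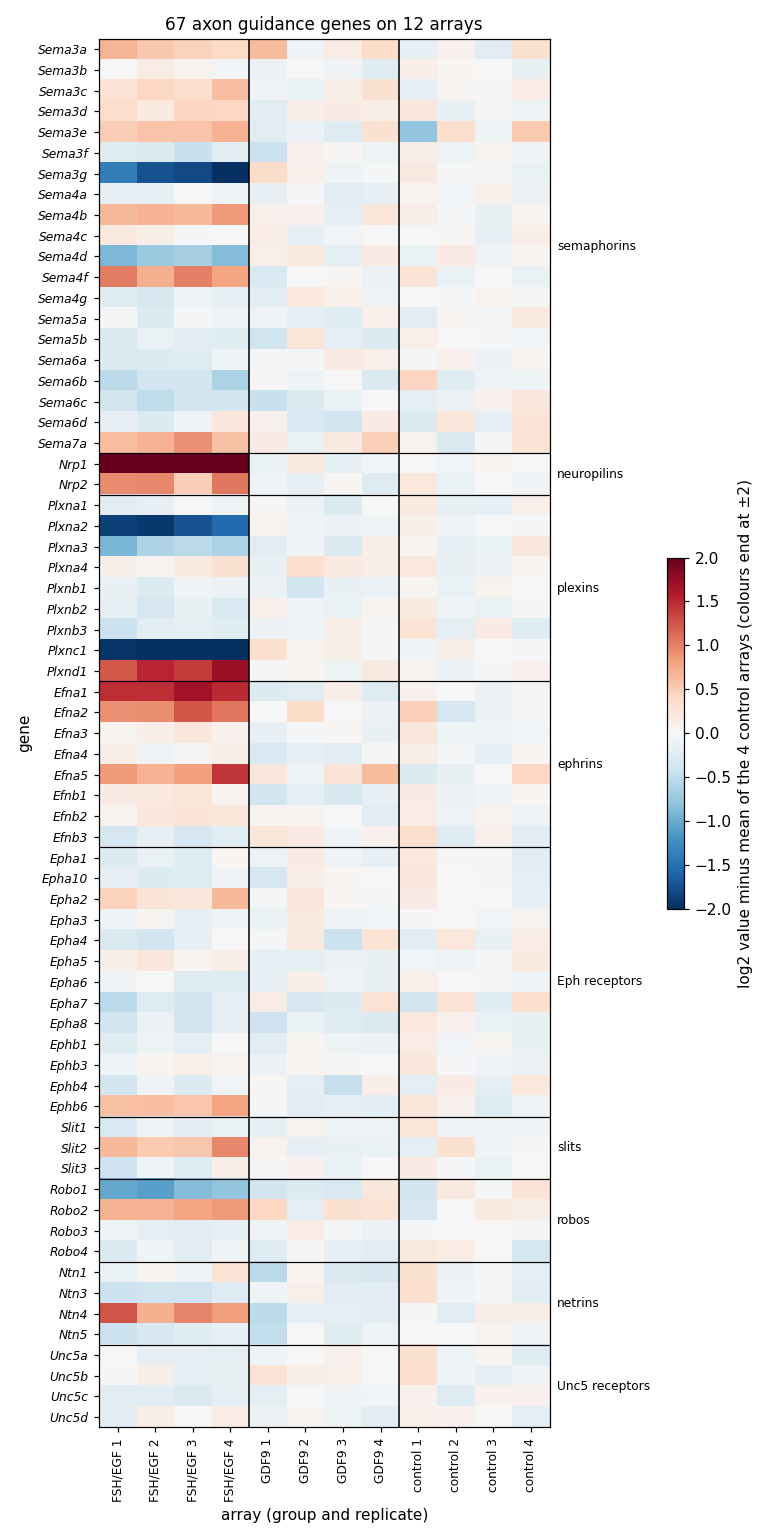
Log2 value of each of the 67 genes (rows, by family) on each of the 12 arrays (columns, FSH/EGF then GDF9 then control) minus the mean of the 4 control arrays, with colours ending at a difference of 2 in either direction. Nrp1, Plxnd1, Efna1 and Efna2 are high and Plxnc1, Plxna2 and Sema3g low on the 4 FSH/EGF arrays, while GDF9 and control columns look alike for these 7 genes.

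Both neuropilin genes rose with FSH/EGF. Nrp1, which encodes the binding partner of Sema3A and a co-receptor of vascular endothelial growth factor, stood at 7.02, 7.49, 7.24 and 7.38 on the FSH/EGF arrays, at 4.39, 4.71, 4.33 and 4.47 on the GDF9 arrays, and at 4.53, 4.48, 4.57 and 4.54 on the control arrays. All 4 FSH/EGF arrays lay far above the other 8, which overlapped with each other. Its rise against control was 2.75 ± 0.11 (SE, n = 4 and 4; 6.74-fold; limma adjusted p = 1.67e-09). Since the control level lay within the dimmest 40% of rows, where signal over background was not analysed, the size of this rise is approximate. Nrp2, the partner of Sema3F and Sema3G, stood at 6.01, 6.01, 5.54 and 6.11 with FSH/EGF, at 4.98, 4.90, 5.10 and 4.80 with GDF9 and at 5.27, 4.93, 5.05 and 4.98 in control medium. FSH/EGF array 3 was the lowest of its group and still above every control array. The rise was 0.86 ± 0.12 (limma adjusted p = 0.000176), and its control mean of 5.06 also lay within the dimmest 40% of rows.

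The base sequence before the start of Nrp1 is shown because it has the largest rise, that of Plxnc1 because it has the largest fall, and that of Epha2 because its window was the only one of these genes with a full cAMP response element. Each window holds the 250 bases before the start of the RefSeq gene, 5′ to 3′ on the gene's strand, in GRCm38.p6. The windows lie at chr8:128358823-128359072 on the plus strand for Nrp1, chr10:94944846-94945095 on the minus strand for Plxnc1 and chr4:141300971-141301220 on the plus strand for Epha2. Capitals mark the motifs searched for, on either strand.
Nrp1: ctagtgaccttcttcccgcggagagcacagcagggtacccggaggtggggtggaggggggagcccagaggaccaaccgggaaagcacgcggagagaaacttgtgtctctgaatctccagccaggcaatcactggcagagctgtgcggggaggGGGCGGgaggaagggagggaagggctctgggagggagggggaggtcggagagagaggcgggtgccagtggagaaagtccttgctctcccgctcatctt
Plxnc1: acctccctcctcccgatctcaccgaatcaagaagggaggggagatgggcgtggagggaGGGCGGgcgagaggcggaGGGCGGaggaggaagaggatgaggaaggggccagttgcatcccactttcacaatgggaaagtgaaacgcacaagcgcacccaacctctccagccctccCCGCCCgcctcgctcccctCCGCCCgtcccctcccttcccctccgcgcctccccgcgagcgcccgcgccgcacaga
Epha2: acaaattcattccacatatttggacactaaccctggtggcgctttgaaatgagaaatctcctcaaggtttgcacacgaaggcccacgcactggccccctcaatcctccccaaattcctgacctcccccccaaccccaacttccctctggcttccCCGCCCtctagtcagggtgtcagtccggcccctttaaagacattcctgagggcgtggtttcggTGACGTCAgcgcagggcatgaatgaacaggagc

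The search covered 5 motifs: the cAMP response element TGACGTCA, its short form TGACG (which lies inside the full one), the AP-1 site TGANTCA, the NR5A site TCAAGGTCA and the GC box GGGCGG. RefSeq promoter windows were at hand for 58 of the 67 genes, 74 windows in all, of which 17 risers, 10 fallers and 31 others. The full cAMP response element was in the Epha2 window, with its first base at position -33 from the start, and so in 1 of the 74 windows and in 1.55% of all 32851 windows. The short form was in 7 of the 74 windows, or 9.46%, against 17.8% of all windows. These belonged to 7 genes, 2 of them risers (Sema3d and Epha2) and 0 fallers. The AP-1 site was in 3 of the 74 windows, or 4.05%, against 6.75% of all windows. These were the windows of Sema4c, Sema4d and Sema6b, of which the last 2 fell. The NR5A site was in 0 of the 74 windows, against 0.387% of all. The GC box was in 53 of the 74 windows, or 71.6%, against 32.7% of all windows, and in those of 13 risers, 8 fallers and 23 others. Nrp1 had 1 GC box, with its first base at position -98, and Plxnc1 had 4.

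The plexin genes split. Plxnd1, which encodes the receptor that binds Sema3E without a neuropilin, was the riser of the 9 plexin genes, and 3 others fell. In either direction 44.4% of the plexin genes passed, against 36.8% of all named genes. All plexin genes lay above the upper limit of the dimmest rows (5.07), and 48.2% of the named genes above it passed. Plxnd1 stood at 7.30, 7.60, 7.47 and 7.79 on the FSH/EGF arrays, at 6.05, 6.12, 5.97 and 6.25 on the GDF9 arrays and at 6.14, 5.95, 6.06 and 6.16 on the control arrays. Its lowest FSH/EGF array was above the highest of the other 8, and it rose by 1.46 ± 0.10 (2.76-fold; limma adjusted p = 3.70e-07).

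Plxnc1, whose product is the receptor of Sema7A, had 7.42, 6.92, 7.09 and 6.78 with FSH/EGF, 9.69, 9.42, 9.49 and 9.34 with GDF9 and 9.29, 9.49, 9.36 and 9.35 in control medium. The FSH/EGF arrays lay below all others, with a difference of -2.32 ± 0.12 (limma adjusted p = 2.87e-08). Plxna2, a receptor for class 6 semaphorins and, with neuropilins, for class 3, had 6.41, 6.34, 6.53 and 6.72 with FSH/EGF, 8.34, 8.21, 8.16 and 8.18 with GDF9 and 8.40, 8.20, 8.26 and 8.24 in control medium. The FSH/EGF arrays again lay below all others, at -1.77 ± 0.09 (limma adjusted p = 1.36e-08). Plxna3, the partner of Nrp2 in Sema3F binding, averaged 5.67 ± 0.16 with FSH/EGF and 6.35 ± 0.18 in control medium (SD, n = 4 each) and fell by 0.68 (limma adjusted p = 0.000862).

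The other 5 plexin genes did not pass the threshold. Plxna1 was at -0.12 (95% interval -0.34 to 0.10), Plxna4 at 0.17, and the class B genes Plxnb1, Plxnb2 and Plxnb3, which encode receptors for Sema4 and Sema5 proteins, at -0.15, -0.24 and -0.27. For Plxnb2 the 4 FSH/EGF arrays lay below the controls (9.78 ± 0.09 with FSH/EGF, 10.02 ± 0.14 in control medium; limma adjusted p = 0.0511), and it passed without control array 3 (-0.29, limma adjusted p = 0.0429) or GDF9 array 1 (limma adjusted p = 0.0471). Plxnb3 passed without control array 4 (-0.35, limma adjusted p = 0.0419). After renewed quantile normalization Plxna1 (-0.34), Plxnb1 (-0.35) and Plxnb2 (-0.46) were past the threshold as well.

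**Figure D2:**
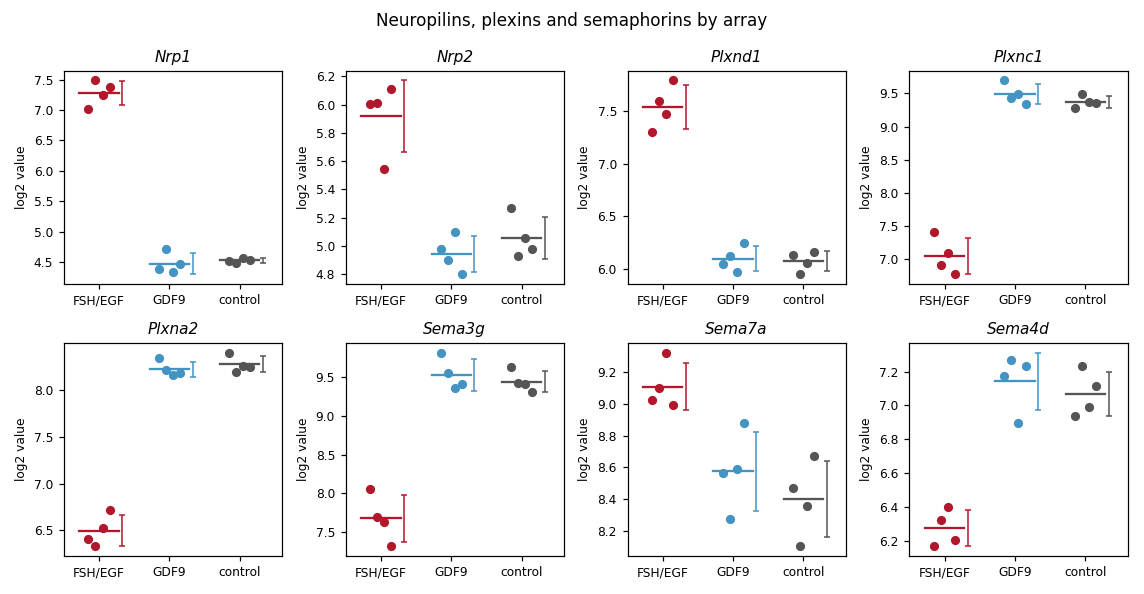
Log2 value (vertical axis, a range of its own in each panel, not starting at 0) of 8 neuropilin, plexin and semaphorin genes on each array (points), with the group mean (line) and SD (bar beside it, n = 4) for FSH/EGF, GDF9 and control. In each panel the 4 FSH/EGF points lie apart from the 4 control points, with Nrp1 at 7.02 to 7.49 against 4.48 to 4.57 and Plxnc1 at 6.78 to 7.42 against 9.29 to 9.49.

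Of the 20 semaphorin genes, 6 rose and 5 fell with FSH/EGF, and the largest difference was a fall. Together 55% of this family passed, against 36.8% of all named genes. All semaphorin genes but Sema3d lay above the upper limit of the dimmest rows (5.07), and 48.2% of the named genes above it passed. Sema3g, which encodes a secreted ligand of Nrp2, stood at 8.06, 7.70, 7.63 and 7.32 on the FSH/EGF arrays, at 9.81, 9.55, 9.35 and 9.41 on the GDF9 arrays and at 9.63, 9.42, 9.41 and 9.31 on the control arrays. Every FSH/EGF array was below every other array, at -1.76 ± 0.15 (3.40-fold lower; limma adjusted p = 1.48e-06). Its class, the secreted semaphorins, otherwise had 3 risers of small size among 7 genes. Sema3a, whose product binds Nrp1, averaged 6.56 ± 0.12 with FSH/EGF and 6.04 ± 0.24 in control medium (0.52, limma adjusted p = 0.0214), a call lost without control array 1 (0.46, limma adjusted p = 0.0537), control array 3 (0.45, limma adjusted p = 0.0655) or FSH/EGF array 1 (0.46, limma adjusted p = 0.0655). Sema3c, a ligand of both neuropilins, averaged 10.84 ± 0.14 with FSH/EGF and 10.43 ± 0.13 in control medium (0.41, limma adjusted p = 0.0134). Sema3d was at 0.35 (limma adjusted p = 0.0289), with overlapping arrays, and its call was lost without control array 2, 3 or 4 or FSH/EGF array 1, 3 or 4 (0.30 to 0.35, limma adjusted p = 0.0555 to 0.0802).

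Sema3e, the ligand of Plxnd1, had 8.42, 8.49, 8.50 and 8.62 with FSH/EGF, 7.72, 7.81, 7.66 and 8.24 with GDF9 and 7.16, 8.25, 7.84 and 8.46 in control medium. The controls spread widely, from array 1 at the low end to array 4, which also carried the oocyte transcripts, inside the FSH/EGF range. The difference of 0.58 ± 0.23 missed the threshold (limma adjusted p = 0.0757). It was 0.32 without control array 1 (limma adjusted p = 0.152), 0.36 after renewed quantile normalization (limma adjusted p = 0.248) and 0.76 without control array 4 (limma adjusted p = 0.0219). The part of oocyte RNA in this was not tested. Sema3f was at -0.30 (limma adjusted p = 0.0552), and past the threshold without GDF9 array 1 (limma adjusted p = 0.0147) or GDF9 array 2 (limma adjusted p = 0.0454), which change its spread only. Sema3b was at 0.04 (95% interval -0.13 to 0.22).

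The membrane-bound class 4 had 2 risers and 1 faller of 6, so that 50% passed, against 36.8% of all named genes. Its genes all lay above the upper limit of the dimmest rows (5.07), and 48.2% of the named genes above it passed. Sema4f averaged 6.05 ± 0.15 with FSH/EGF, 5.07 ± 0.15 with GDF9 and 5.17 ± 0.19 in control medium, and rose by 0.88 ± 0.11 (limma adjusted p = 6.60e-05). Sema4b averaged 9.03 ± 0.09 with FSH/EGF, 8.38 ± 0.18 with GDF9 and 8.31 ± 0.11 in control medium and rose by 0.71 ± 0.10 (limma adjusted p = 0.00011). Sema4d, whose product CD100 binds plexins of class B, averaged 6.27 ± 0.11 with FSH/EGF, 7.14 ± 0.17 with GDF9 and 7.07 ± 0.13 in control medium and fell by 0.79 ± 0.10 (limma adjusted p = 5.16e-05). A second probe set of Sema4d, which the choice of members did not use, was at -0.30 (limma adjusted p = 0.0194), the same direction with a smaller size and overlapping arrays. Sema4c, a ligand of Plxnb2, was at 0.07 (95% interval -0.13 to 0.26), and Sema4a and Sema4g did not pass either.

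Sema7a encodes a semaphorin held in the membrane by a lipid anchor, the ligand of the receptor whose gene Plxnc1 fell. It rose, with 9.03, 9.10, 9.32 and 8.99 on the FSH/EGF arrays, 8.57, 8.27, 8.59 and 8.88 on the GDF9 arrays and 8.47, 8.11, 8.36 and 8.67 on the control arrays. The groups FSH/EGF and control did not overlap, and the rise was 0.71 ± 0.14 (limma adjusted p = 0.00216). In class 6, made of transmembrane ligands of class A plexins, 3 of 4 genes fell and 0 rose. Among all named genes 14.9% were lower. Sema6b was at -0.48 (limma adjusted p = 0.0165) and Sema6c at -0.41 (limma adjusted p = 0.0155). As 1 alternative, 3 arrays were left out together (FSH/EGF 3, control 1 and control 4), which had the highest oocyte marker medians (5.06, 5.06 and 5.82). The calls of Sema6b, Sema6c and, in class 3, Sema3c were then lost (limma adjusted p = 0.0792, 0.0671 and 0.0718). Those of Sema3a, Sema3d, Sema6a, Ntn3 and Ntn5 were lost there too (limma adjusted p = 0.0553, 0.0711, 0.248, 0.0995 and 0.131). Sema6c also lost its call with equal array medians (-0.33, limma adjusted p = 0.0544). The fall of Sema6a, -0.22 (limma adjusted p = 0.0492), was lost in 16 of 22 alternatives, among them without control array 1, 2 or 4, GDF9 array 3 or 4, or FSH/EGF array 1, 2 or 3 (-0.19 to -0.23, limma adjusted p = 0.0513 to 0.122). Sema6d was at -0.07. In class 5, Sema5a, at 10.76 ± 0.11 with FSH/EGF and 10.86 ± 0.17 in control medium, and Sema5b, at -0.22, did not pass. Sema5b passed without GDF9 array 2 (limma adjusted p = 0.0337).

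Among the 8 ephrin genes, 3 of the 5 of class A rose, 0 of the 3 of class B did, and 0 fell. That is 37.5% of the family, against 36.8% of all named genes passing in either direction. All ephrin genes lay above the upper limit of the dimmest rows (5.07), and 48.2% of the named genes above it passed. Efna1, an ephrin held in the membrane by a lipid anchor, stood at 7.19, 7.20, 7.41 and 7.22 on the FSH/EGF arrays, at 5.45, 5.50, 5.85 and 5.47 on the GDF9 arrays and at 5.81, 5.73, 5.60 and 5.74 on the control arrays. The FSH/EGF arrays lay above all others, and the rise was 1.53 ± 0.10 (2.90-fold; limma adjusted p = 1.29e-07). Efna2 stood at 7.88, 7.89, 8.20 and 8.03 with FSH/EGF, at 6.95, 7.32, 6.95 and 6.84 with GDF9 and at 7.44, 6.63, 6.84 and 6.91 in control medium. Control array 1 was the highest control and still below the lowest FSH/EGF array, and the rise was 1.04 ± 0.16 (limma adjusted p = 0.000294). Efna5 stood at 7.86, 7.71, 7.85 and 8.45 with FSH/EGF, at 7.25, 6.94, 7.27 and 7.64 with GDF9 and at 6.75, 6.87, 7.02 and 7.44 in control medium. The FSH/EGF arrays lay above all others, GDF9 and control arrays overlapped, and Efna5 rose by 0.95 ± 0.19 (limma adjusted p = 0.00259). Efna3 was at 0.13 and Efna4 at 0.05. The class B genes, whose products cross the membrane, were at 0.16 (Efnb1), 0.20 (Efnb2) and -0.27 (Efnb3), and did not pass. Efnb1 and Efnb2 passed with equal array medians (0.24 and 0.28), while renewed quantile normalization put Efnb1 at 0.0047 (limma adjusted p = 0.979) and Efnb2 at 0.27 (limma adjusted p = 0.0199).

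Of the 13 Eph receptor genes, 2 rose and 0 fell, so that 15.4% passed, against 36.8% of all named genes in either direction. Epha3, Epha5, Epha6 and Ephb3 lay below the upper limit of the dimmest rows (5.07). Of all named genes, 12.5% of those below it passed and 48.2% of those above it. Ephb6, which encodes a receptor without kinase activity, stood at 7.75, 7.77, 7.73 and 7.96 on the FSH/EGF arrays, at 7.13, 6.96, 6.99 and 6.96 on the GDF9 arrays and at 7.42, 7.26, 6.91 and 7.10 on the control arrays. The FSH/EGF arrays lay above all others, and it rose by 0.63 ± 0.10 (limma adjusted p = 0.000512). Epha2, a receptor of class A ephrins, averaged 5.73 ± 0.19 with FSH/EGF, 5.38 ± 0.13 with GDF9 and 5.34 ± 0.13 in control medium, a rise of 0.40 ± 0.11 (limma adjusted p = 0.0144). The class A receptor genes Epha4 (7.49 ± 0.16 with FSH/EGF, 7.70 ± 0.22 in control medium) and Epha7 (7.69 ± 0.15 with FSH/EGF, 8.04 ± 0.36 in control medium) did not pass, and Epha7 was at -0.57 and past the threshold after renewed quantile normalization (limma adjusted p = 0.0163). Ephb4, the receptor of ephrin-B2, was at -0.19 (95% interval -0.49 to 0.12) and, after that normalization, at -0.41 (limma adjusted p = 0.0287). Epha8 was at -0.26 (limma adjusted p = 0.0713) and passed without control array 4 (-0.32, limma adjusted p = 0.0463). Epha1, Epha3, Epha5, Epha6, Epha10, Ephb1 and Ephb3 lay between -0.19 and 0.12.

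**Figure D3:**
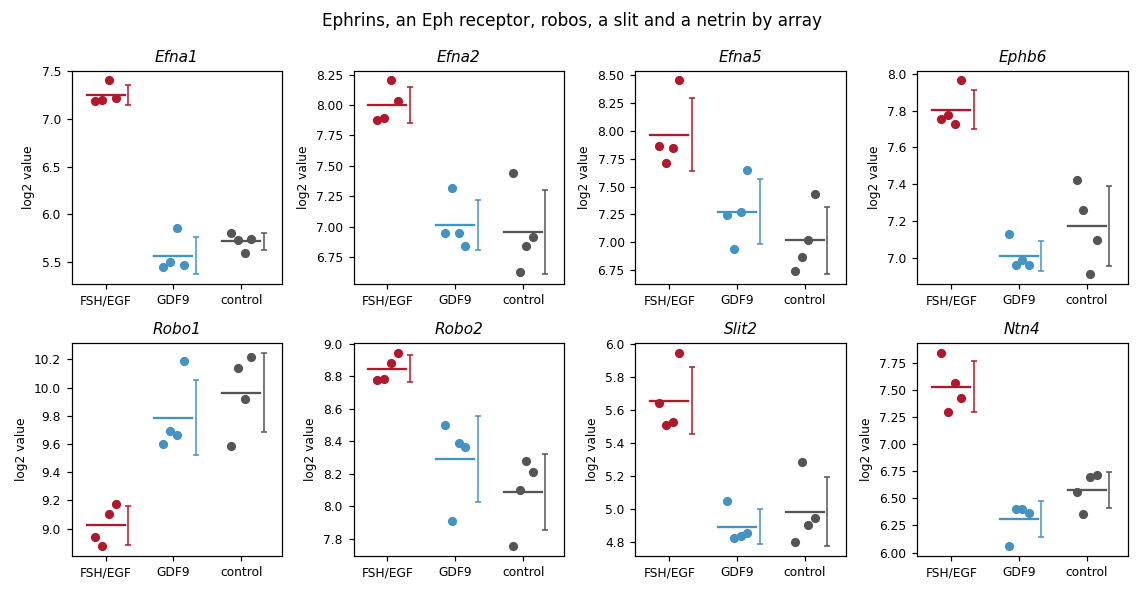
Log2 value (vertical axis, a range of its own in each panel, not starting at 0) of 8 ephrin, Eph receptor, robo, slit and netrin genes on each array (points), with the group mean (line) and SD (bar beside it, n = 4) for FSH/EGF, GDF9 and control. Efna1 with FSH/EGF is at 7.19 to 7.41 against 5.60 to 5.81 in control medium, and Robo1 and Robo2 move in opposite directions.

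The paralogs Robo1 and Robo2, which both encode slit receptors, changed in opposite directions. Robo1 stood at 8.94, 8.88, 9.10 and 9.17 on the FSH/EGF arrays, at 9.60, 9.70, 9.67 and 10.19 on the GDF9 arrays and at 9.58, 10.14, 9.92 and 10.21 on the control arrays. The FSH/EGF arrays lay below all others, and the fall was -0.94 ± 0.15 (1.92-fold lower; limma adjusted p = 0.00051). Robo2 stood at 8.78, 8.78, 8.88 and 8.95 with FSH/EGF, at 8.50, 7.91, 8.39 and 8.37 with GDF9 and at 7.75, 8.10, 8.28 and 8.21 in control medium. Here the FSH/EGF arrays lay above all others, and the rise was 0.76 ± 0.14 (limma adjusted p = 0.00107). Both calls and both directions held in all 22 alternatives, including the scaling ones. Robo3 was at -0.17 (limma adjusted p = 0.0843), and past the threshold without GDF9 array 2 (limma adjusted p = 0.041). Robo4, known from endothelial cells, was also at -0.17 (limma adjusted p = 0.302), and at -0.28 without control array 4 (limma adjusted p = 0.0394).

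Of their ligands, Slit2 stood at 5.64, 5.51, 5.52 and 5.94 with FSH/EGF, at 5.05, 4.83, 4.84 and 4.86 with GDF9 and at 4.81, 5.29, 4.90 and 4.95 in control medium. All FSH/EGF arrays were above the controls, and Slit2 rose by 0.67 ± 0.12 (limma adjusted p = 0.00105), although its control mean of 4.99 lay among the dimmest 40% of rows. Slit1 and Slit3 were at -0.18 and -0.16 and did not pass.

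Of 4 netrin genes, 1 rose and 2 fell, and 0 of 4 Unc5 receptor genes passed. Among all named genes 36.8% passed in either direction. All netrin and Unc5 receptor genes but Unc5c lay above the upper limit of the dimmest rows (5.07). Of the named genes above it, 48.2% passed. Ntn4, which encodes a secreted protein related to laminins, stood at 7.84, 7.30, 7.56 and 7.42 on the FSH/EGF arrays, at 6.06, 6.40, 6.40 and 6.37 on the GDF9 arrays and at 6.56, 6.35, 6.69 and 6.72 on the control arrays. FSH/EGF arrays lay above all others, and the rise was 0.95 ± 0.13 (1.93-fold; limma adjusted p = 9.99e-05). Ntn1, the classical ligand of DCC, averaged 6.30 ± 0.18 with FSH/EGF and 6.27 ± 0.21 in control medium, a difference of 0.03 (95% interval -0.28 to 0.33). The falls of Ntn3, -0.37 (limma adjusted p = 0.0278), and Ntn5, -0.29 (limma adjusted p = 0.0455), were small. That of Ntn3 was lost without control array 1 or 3 or FSH/EGF array 1, 2 or 3 (-0.26 to -0.38, limma adjusted p = 0.0508 to 0.0712), and that of Ntn5 without any 1 of 9 arrays, namely all 4 control arrays, GDF9 arrays 3 and 4 and FSH/EGF arrays 1, 2 and 3 (-0.24 to -0.31, limma adjusted p = 0.0527 to 0.129). Both were also lost under renewed quantile normalization and with equal array medians. Unc5c had 4.93, 4.94, 4.85 and 4.94 with FSH/EGF, 4.94, 5.13, 5.08 and 5.09 with GDF9 and 5.22, 4.88, 5.23 and 5.24 in control medium. Control array 2 alone lay within the FSH/EGF range, and the difference of -0.23 ± 0.09 missed the threshold (limma adjusted p = 0.0686) with it and passed without it (-0.31, limma adjusted p = 0.00598). Unc5a, Unc5b and Unc5d were at -0.13, -0.04 and 0.01.

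**Figure D4:**
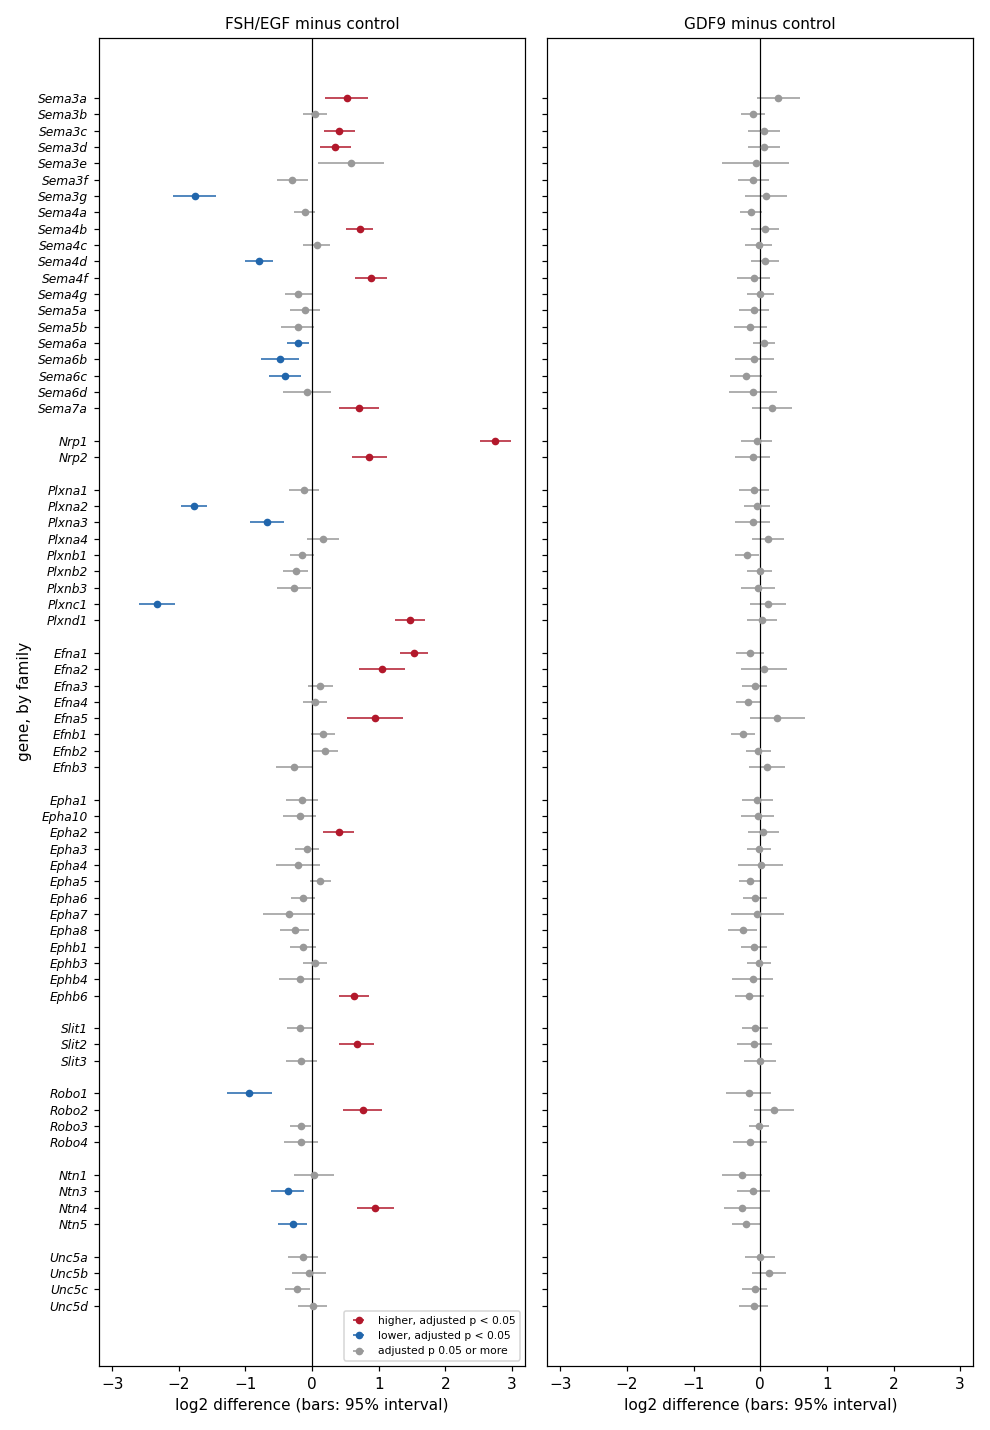
Log2 difference (horizontal axis, points) with its 95% interval (bars) for each of the 67 genes, FSH/EGF minus control on the left and GDF9 minus control on the right, on the same scale. With FSH/EGF 17 genes are marked higher and 11 lower, from -2.32 (Plxnc1) to 2.75 (Nrp1), and with GDF9 0 genes are marked and all intervals lie between -0.57 and 0.68.

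GDF9 minus control asked what the oocyte factor adds in complexes whose own oocytes were present. By limma 0 of the 67 genes passed, as did 0% of all named genes in either direction, and the lowest adjusted p among the 67 was 0.971. Before adjustment 4 of the 67 had a limma p under 0.05, against 4.95% of all named genes, and 2 had arrays that did not overlap, against 2.32%. Efnb1, an ephrin of class B, stood at 6.54, 6.72, 6.58 and 6.74 with GDF9 and at 7.07, 6.79, 6.82 and 6.95 in control medium. The groups did not overlap, and the difference was -0.26 ± 0.08 (limma, unadjusted p = 0.00717, adjusted p = 0.971). Epha8 averaged 5.36 ± 0.12 with GDF9 and 5.63 ± 0.17 in control medium, and Plxnb1 averaged 7.12 ± 0.13 with GDF9 and 7.32 ± 0.09 in control medium (limma, unadjusted p = 0.0224 and 0.0333). The other gene was Efna4, and the other pair of groups without overlap was that of Epha5 (4.49 ± 0.03 with GDF9, 4.65 ± 0.13 in control medium). The 95% intervals of all 67 genes lay within 2-fold, from -0.57 for Ntn1 to 0.68 for Efna5. Genes with large FSH/EGF changes were close to control here, with Nrp1 at -0.05 (95% interval -0.28 to 0.18), Plxnc1 at 0.11 (-0.16 to 0.38), Plxna2 at -0.05 (-0.24 to 0.14) and Efna1 at -0.15 (-0.36 to 0.06). All 22 oocyte markers had a lower mean with GDF9 than in control medium, where array 4 was high. The part of this in the differences was not tested.

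FSH/EGF minus GDF9 compares the treatments directly and shares the FSH/EGF arrays with the comparison against control. It called 17 genes higher and 8 lower, 25.4% and 11.9%, against 18.6% and 10.5% of all named genes, with at least 2-fold changes in 4 and 3, against 4.33% and 2.24%. With the dimmest 40% of rows removed, 17 were higher and 9 lower of the 60 left, against 27% and 14.1% of the named genes left. With all rows kept, Nrp1 was at 2.81 ± 0.11 (limma adjusted p = 1.45e-09), Efna1 at 1.69, Plxnd1 at 1.44 and Ntn4 at 1.22 ± 0.13 (limma adjusted p = 1.22e-05). Plxnc1 was at -2.43, Sema3g at -1.85 and Plxna2 at -1.72. Sema4d was at -0.87 (limma adjusted p = 2.63e-05), while its second probe set was at -0.10 (limma adjusted p = 0.468), with overlapping arrays. Here 3 genes passed that had not passed against control: Efnb1, at 0.42 (limma adjusted p = 0.0019), Epha5, at 0.28 (limma adjusted p = 0.0147), and Efnb3, at -0.37 (limma adjusted p = 0.0485). Efnb3 was lost without control array 3, GDF9 array 1, 2 or 4 or any FSH/EGF array (limma adjusted p = 0.0603 to 0.117). Efna5 (0.69, limma adjusted p = 0.0207) was lost without GDF9 array 2 (limma adjusted p = 0.0653) or FSH/EGF array 4 (limma adjusted p = 0.0589), and Sema7a (0.53) without FSH/EGF array 3 (limma adjusted p = 0.0509). Epha2 (0.35) was lost without GDF9 array 1, 3 or 4 or FSH/EGF array 1 or 4, Sema3c (0.35) without GDF9 array 1, 2 or 3 or FSH/EGF array 2, 3 or 4, and Sema6a (-0.27) without GDF9 array 3 or 4 or FSH/EGF array 1, 2 or 3 (highest limma adjusted p = 0.0965, 0.102 and 0.0704). Renewed quantile normalization also lost Efna5, Sema7a, Sema6a and Efnb3 (limma adjusted p = 0.0521 to 0.0823). Equal array medians lost Sema6a and Efnb3 (limma adjusted p = 0.0623 and 0.0759). Under both scalings Sema3d, Efna3 and Efnb2 passed, with Plxnb2 under the first and Efna4 under the second. Sema3e was at 0.65 (limma adjusted p = 0.0599) and passed without control array 1 (limma adjusted p = 0.00523), control array 4 (limma adjusted p = 0.0362) or GDF9 array 4 (limma adjusted p = 0.0386). Without control array 1, Sema3d, Sema6b, Plxnb2, Efna3, Efna4 and Ntn3 also passed (limma adjusted p = 0.00549 to 0.0462), without GDF9 array 1 Sema3f and Sema4g did (limma adjusted p = 0.0265 and 0.0342), without GDF9 array 4 Sema6b and Efna4 (limma adjusted p = 0.0381 and 0.0411), and without control array 2 Sema6b (limma adjusted p = 0.0441).

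Further genes of these pathways were followed in 5 lists, none of which holds any of the 67 genes, and their counts stand beside 21.9% of all named genes higher and 14.9% lower with FSH/EGF. With FSH/EGF, 12 of 17 shared cytoskeletal effectors rose and 2 fell, with a median of 0.57. Ezr, which encodes ezrin, a linker of actin to the membrane, averaged 11.11 ± 0.13 with FSH/EGF and 7.91 ± 0.10 in control medium (SD, n = 4 each; 9.21-fold; limma adjusted p = 6.02e-11). The related Msn rose by 2.13 and Limk1, whose product is a kinase acting on cofilin, by 1.18, and Ablim1, an actin-binding gene, fell by 2.23 ± 0.10 (limma adjusted p = 5.78e-09). Of 19 partners of slits and robos 9 rose and 2 fell, with a median of 0.17. Among them the heparan sulfate proteoglycan genes Sdc1 and Gpc1 rose by 2.68 and 1.47, Cxcr4, a chemokine receptor gene, by 2.26, and Nell1 by 1.93.

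In the semaphorin and plexin signalling list, 11 of 32 rose and 5 fell, with a median of 0.00. Mical2 and Mical3 belong to a family of oxidases that act on actin, and they went opposite ways, at 2.77 ± 0.15 and -1.94 ± 0.10 (limma adjusted p = 3.84e-08 and 2.22e-08). Nrcam, an adhesion molecule gene, was at 1.60 and Dpysl3, of the collapsin response mediator family, at -1.39. In the ephrin and Eph signalling list 6 of 25 rose and 5 fell, with a median of 0.09. Tiam1, Ngef and Sdcbp rose by 1.97, 1.51 and 1.43, and Itsn1 fell by 1.25. Of 11 genes in the list of netrin, repulsive guidance and DCC family partners, 3 rose and 3 fell, with a median of -0.07. Bmp2 was at -1.90, Ntng1, a membrane-anchored relative of netrins, at -0.98, Rgmb at 0.78 and Lrrc4c at 0.54. Neo1, which encodes neogenin, a netrin receptor of the DCC family, averaged 10.23 with FSH/EGF, 9.75 with GDF9 and 9.75 in control medium. With GDF9, 0 genes of these lists passed.

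Several of the genes are known from endothelial cells and neurons, and markers of these and other cells were read beside them. The marker counts stand beside 21.9% of all named genes higher and 14.9% lower with FSH/EGF. Of 12 endothelial markers, 2 rose with FSH/EGF, Cdh5 by 3.18 ± 0.09 and Tek by 0.29, and Egfl7 fell by 0.31. The other 9, Pecam1, Kdr, Emcn and Vwf among them, did not pass and were all below 0, down to -0.34 for Cldn5, and 5 of the 12 lay among the dimmest 40% of rows. Their mean ran from 5.33 to 5.38 on FSH/EGF arrays, from 5.04 to 5.22 on GDF9 arrays and from 5.07 to 5.27 on control arrays. Of 10 neuron markers 2 rose, Snap25 by 1.06 and Stmn2 by 0.78, and 2 fell, Map2 by 1.05 and Elavl4 by 0.36, with list means of 5.11 to 5.20 on FSH/EGF arrays, 4.98 to 5.13 on GDF9 arrays and 5.10 to 5.18 on control arrays. Theca, stroma and smooth muscle markers had 1 riser and 3 fallers of 12 (list means 5.66 to 5.74 with FSH/EGF, 5.92 to 6.03 in control medium). Leukocyte markers had 1 and 1 of 12 (4.83 to 4.93 with FSH/EGF, 4.91 to 5.08 in control medium), and surface epithelium markers had 2 and 3 of 9 (5.88 to 5.95 with FSH/EGF, 5.33 to 5.62 in control medium). Of these 9, 2 were above 0, by up to 3.02, and 7 below 0, with a median of -0.21. Oocyte markers had 0 risers and 2 fallers of 22, with all 22 below 0 and a median of -0.28 (4.79 to 5.11 with FSH/EGF, 4.95 to 5.87 in control medium). Of the granulosa and cumulus markers 1 of 13 rose and 9 fell. The part of other cells in the results was not tested.

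The genes whose values ran most like those of Nrp1 over the 12 arrays, among all named genes, were Ptprn, Sult1e1 and Mrap (Pearson r = 0.997 each). Those most like Plxnc1 were Esr1, the estrogen receptor alpha gene, Hpgd, which breaks down prostaglandins, and Papss2, of sulfate activation (r = 0.996 each). These correlations describe 12 points in 3 groups that part mainly by FSH/EGF. Within single groups r ran from -0.995 to 0.976 for the 3 genes like Nrp1 and from 0.138 to 0.976 for those like Plxnc1.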

How the data were processed

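Per the submitters' processing notes, RMA, Partek and GCOS were used, with no role or version, and the authors deposited normalized log2 expression values of 12 arrays. The genome build of the array annotation is not given in the sources used here. Of 35399 rows, 21789 had 1 gene symbol in the platform annotation, 1621 had several and named no gene, and 11989 were not listed; all rows were tested. All 67 genes matched RefSeq through their Entrez identifiers with the same symbol. Precision is limited by how many arrays there are.

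Groups were compared with limma 3.58.1 in R 4.3.3: 1 mean per group, empirical Bayes moderation, and p-values adjusted by Benjamini-Hochberg across every row, at a threshold of 0.05. The model was tested on simulated data. The genes and lists were chosen with earlier results of these data known. Values on every array are given for genes past the threshold with at least 2-fold changes, or the one with the smallest p of a family without such. Further ligands and receptors of these, and the 3 smallest p with GDF9, are given with group means or differences. Up to 4 genes of each pathway list and the 3 likest genes complete the rule. Further values given by array (Nrp2, Sema3e, Sema7a, Efna5, Robo2 and, on GDF9 and control arrays, Efnb1) and the marker genes named were picked with their values in view. The second probe sets of Epha10, Ephb1 and Unc5d did not pass either, and that of Sema6b held values identical to the first.

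Alternatives were weighting of the arrays, a variance trend, fits of 2 groups alone, robust moderation, leaving out the dimmest 40% of rows, setting all array medians equal, quantile normalization once more, the mean over probe sets, the replicate number as a block, each array left out, and 3 arrays left out together. Same-numbered arrays did not deviate together (correlations of deviations from -0.389 to 0.221), so that the numbers were not taken as pairs.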

Additional observations from a re-analysis of the deposited data

Results flagged for a closer look

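Within groups of 4 arrays, the highest or lowest array was set apart from the other 3 by Dixon's criterion in 15 of 201 cases, where chance gives about 1 in 20, or 10.05. GDF9 array 1 had 4 of these cases. It was low for Sema3d (4.08, others 4.42 to 4.46) and Ntn4 (6.06, others 6.37 to 6.40) and high for Ephb6 (7.13, others 6.96 to 6.99) and Slit2 (5.05, others 4.83 to 4.86). On the other GDF9 arrays, Plxnb1 was low on array 2 (6.93, others 7.16 to 7.20), Efna1 was high on array 3 (5.85, others 5.45 to 5.50), and Robo1 was high on array 4 (10.19, others 9.60 to 9.70).

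On FSH/EGF arrays, Efna1 was high on array 3 (7.41, others 7.19 to 7.22), Robo3 was high on array 1 (5.01, others 4.88 to 4.90) and Efnb2 was low there (5.45, others 5.61 to 5.63). Sema6c was low on array 2 (5.65, others 5.78), and Unc5c was low on array 3 (4.85, others 4.93 to 4.94). On control arrays, Efna3 and Slit1 were high on array 1 (5.35, others 5.04 to 5.06, and 5.63, others 5.28 to 5.32), and Unc5c was low on array 2 (4.88, others 5.22 to 5.24). Efna1 kept its call with FSH/EGF against control without FSH/EGF array 3. Unc5c, short of the threshold there, passed in 1 of 21 alternatives, without control array 2.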

How the results depend on the processing

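Of the 28 calls with FSH/EGF against control, 20 held in all 22 alternatives, 8 were lost in at least 1 (Sema3a, Sema3c, Sema3d, Sema6a, Sema6b, Sema6c, Ntn3 and Ntn5), 16 other genes passed in at least 1, and 0 reversed; 9 of the 39 genes short of the threshold changed sign in at least 1. The largest changes held throughout, with Nrp1 between 2.68 and 2.84, Plxnc1 between -2.51 and -2.23, Efna1 between 1.46 and 1.61 and Robo1 between -1.16 and -0.86. In place of 11 fallers there were 7 with equal array medians, which shifted all genes by 0.08. There were 6 when FSH/EGF array 3 and control arrays 1 and 4 were left out together, or 8.96%, against 8.94% of all named genes. Fewer arrays were fitted there. Other settings gave more, with 20 risers and 15 fallers under array weights, or 29.9% and 22.4%. Under those weights 24.2% of all named genes were higher and 20.4% lower. Renewed quantile normalization gave 18 risers and 14 fallers, and 8 of the 11 fallers were among these. At least 2-fold changes numbered 4 up and 3 down against control, and 4 and 3 against GDF9. With 1 array left out, 15 to 17 genes rose and 8 to 14 fell against control, 14 to 21 rose and 6 to 11 fell against GDF9, and 0 passed with GDF9 against control in either direction. Of all named genes, 19.3% to 22.3% were then higher and 10.7% to 16.1% lower against control. Against GDF9, 16.1% to 20.6% of them were higher and 8.6% to 12.2% lower. With GDF9 against control at most 0.00502% of them passed. With the replicate block, 17 rose and 11 fell against control, 17 and 8 against GDF9, and 0 and 0 with GDF9. The shares of all named genes were 20.9% and 13.3% against control and 17.7% and 9.71% against GDF9. With this block, against control, Sema3d and Sema6a lost their calls (limma adjusted p = 0.054 and 0.0662), and Sema3e and Plxnb2 passed (limma adjusted p = 0.0347 and 0.0466). Against GDF9, 19 of 25 calls held throughout. Signal over background was not analysed, which limits Nrp1, Nrp2, Slit2, Sema3d and other dim genes.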
